A study of Mus musculus with 12 samples.

Results

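The Hox genes were examined for BRG1 binding in cardiac precursors (CPs) that had been differentiated from mouse embryonic stem cells. They were given as a list of 38 genes in 4 clusters, among 22380 protein-coding genes in the annotation of mm9 used here, and a gene counted as bound at its promoter when a listed region lay within 1 kb of an annotated transcription start site (TSS). None of the 38 had such a region, and 1 of the 3473 distinct regions lay inside a cluster, in an intron of Hoxb3.

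BRG1 is an ATPase of BAF chromatin remodeling complexes, where it and BRM take each other's place, and ChIPseq maps where it sits by sequencing the DNA that an antibody against it brings down. The list came from wild-type CPs of the W4/129S6 strain, grown through embryoid bodies with VEGF, Activin and BMP4 and then as monolayers with FGFs. Behind it stood 2 BRG1 ChIP libraries and 1 input library, while 9 of the 12 libraries of the series, of cardiomyocytes and of BAF170 KO or BAF60c KO cells, were not used here. The list gives positions only, 4791 rows for 3473 distinct regions, so no value carries an error between replicates, depth is unknown, and a locus without a listed region may be unbound or below the threshold of the authors. No test was made, and all values are descriptions of this 1 list. Markers of CPs could not be checked, since the list holds no expression values.

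Hox genes encode homeodomain transcription factors that give cells their position along the body axis. Within a cluster all of them are read from the same strand, and those at the 3' end are switched on earlier and further towards the head than those at the 5' end. Genes in the same place of different clusters form a paralogue group, numbered from the 3' end. In heart development, 3' Hox genes are known from progenitors of the second heart field, where they respond to retinoic acid, while Polycomb complexes keep Hox clusters silent in cells that do not use them.

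The list held 1 region inside a cluster and 5 within 100 kb of a cluster, all 6 at HoxB. The sequences of the region inside the cluster and of 3 narrow regions beside it are shown, so that the binding in the gene can be set beside binding outside it. Their positions are on the plus strand of mm9, the strand from which the HoxB genes are read. Capitals mark the GATA word AGATAA on either strand, the single kind of word among those searched that occurred in them. For the region in Hoxb3, the 300 bases at its centre are given.

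Hoxb3 intron, chr11:96194116-96194415: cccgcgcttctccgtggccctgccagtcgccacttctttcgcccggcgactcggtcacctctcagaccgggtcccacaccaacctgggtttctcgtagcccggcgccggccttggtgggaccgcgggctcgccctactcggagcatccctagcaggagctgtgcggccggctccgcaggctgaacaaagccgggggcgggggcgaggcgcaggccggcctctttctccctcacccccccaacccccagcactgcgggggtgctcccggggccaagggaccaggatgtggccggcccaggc

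3' of Hoxb1, the second region, chr11:96261466-96261585: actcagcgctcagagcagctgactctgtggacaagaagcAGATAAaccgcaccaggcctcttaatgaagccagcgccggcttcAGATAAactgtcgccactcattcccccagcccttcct

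3' of Hoxb1, the third region, chr11:96268826-96268925: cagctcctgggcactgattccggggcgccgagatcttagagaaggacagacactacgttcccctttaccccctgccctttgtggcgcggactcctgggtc

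Skap1 and Gm11529 promoter, chr11:96325826-96325965: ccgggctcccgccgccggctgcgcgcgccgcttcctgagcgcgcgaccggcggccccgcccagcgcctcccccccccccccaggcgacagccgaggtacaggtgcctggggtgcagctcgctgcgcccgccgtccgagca

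At promoters, 0 of 38 Hox genes had a listed region, against 11.9% of all protein-coding genes (2667 of 22380). The Hox genes have 82 annotated TSSs, and the nearest approach of a region to any of them was 4.71 kb, at Hoxb3. The count was 0 of 10 in HoxA, 0 of 10 in HoxB, 0 of 9 in HoxC and 0 of 9 in HoxD. By place in the cluster, it was 0 of 11 for the anterior paralogue groups 1 to 4, 0 of 11 for the central groups 5 to 8 and 0 of 16 for the posterior groups 9 to 13. Neighbouring Hox genes share their surroundings, so the 38 are not independent observations. The clusters also hold the starts of 31 annotated genes that are no members, among them antisense RNAs, and 0 of them had a listed region at a promoter. Over annotated genes of every type the share was 7.92%, lower than that of protein-coding genes.

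The clusters, taken from the first to the last listed gene, cover 485 kb together. With 1 region, they carried 2.06 regions per Mb, and the chromosomes as a whole carried 1.31 per Mb. Per length, the value for the clusters was thus no lower than that for the chromosomes, and it rests on a single region.

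**Figure D1:**
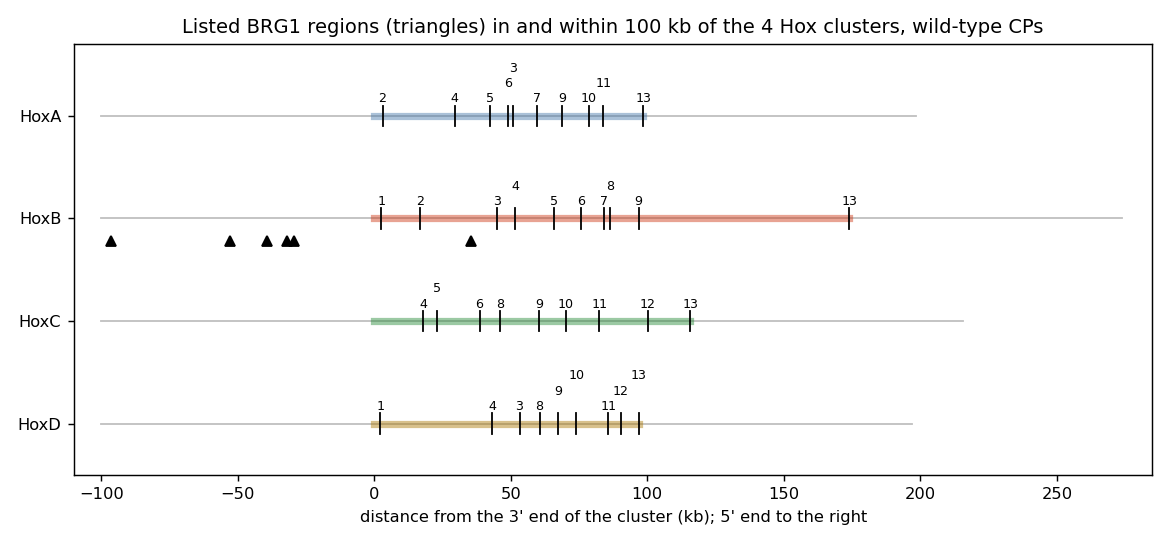
Each line is a Hox cluster with 100 kb on either side, in kb from its 3' end. Ticks are gene starts with their paralogue group, the thick part is the cluster, and triangles are listed regions: 1 inside HoxB, 5 on its 3' side, and none at HoxA, HoxC and HoxD.

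HoxA (chr6:52112350-52210874, read from the minus strand) lay, of the 4 clusters, in the longest stretch without regions. The nearest region on the 3' side was 891 kb from the cluster and the nearest on the 5' side 1190 kb, so that 2179 kb held no region. Of the 3453 gaps between neighbouring regions in the list, 7.62% were longer, and the median gap was 272 kb. The gene starts of Hoxa2 and Hoxa13, the first and last members here, lay 894 and 990 kb from the same region, 460 bp wide. Between them were Hoxa4 at 920 kb, Hoxa5 at 933 kb, Hoxa6 at 940 kb, Hoxa3 at 942 kb, Hoxa7 at 951 kb, Hoxa9 at 960 kb, Hoxa10 at 970 kb and Hoxa11 at 975 kb. These distances follow the order of the genes, as they all run to 1 region. Hoxa3 takes its place from its most distant start.

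HoxD (chr2:74506367-74603200, plus strand) lay in a gap of 1116 kb, and 16.0% of all gaps were longer. The nearest region, of 120 bp, was 262 kb beyond the 3' end, and the nearest on the 5' side, of 140 bp, was 757 kb away. Hoxd1 was closest, at 264 kb, and Hoxd13, which patterns digits and genitalia, was farthest at 359 kb. Between these lay Hoxd4 at 305.5 kb, Hoxd3 at 315.5 kb, Hoxd8 at 323 kb, Hoxd9 at 330 kb, Hoxd10 at 336 kb, Hoxd11 at 348 kb and Hoxd12 at 352.5 kb, all measured to that region on the 3' side.

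HoxC (chr15:102751534-102867274, plus strand) lay in a gap of 695 kb, with 24.9% of gaps longer. Here the nearest region was on the 5' side, 250 kb from the start of Hoxc13, and was 140 bp wide. The same region was the nearest for Hoxc12 at 266 kb, Hoxc11 at 283 kb, Hoxc10 at 296 kb, Hoxc9 at 305 kb, Hoxc8 at 320 kb, Hoxc6 at 327 kb and Hoxc5 at 343 kb. Hoxc4 lay 347 kb from a region of 660 bp on the 3' side. No region was listed within 100 kb of either end of HoxA, HoxC or HoxD.

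**Figure D2:**
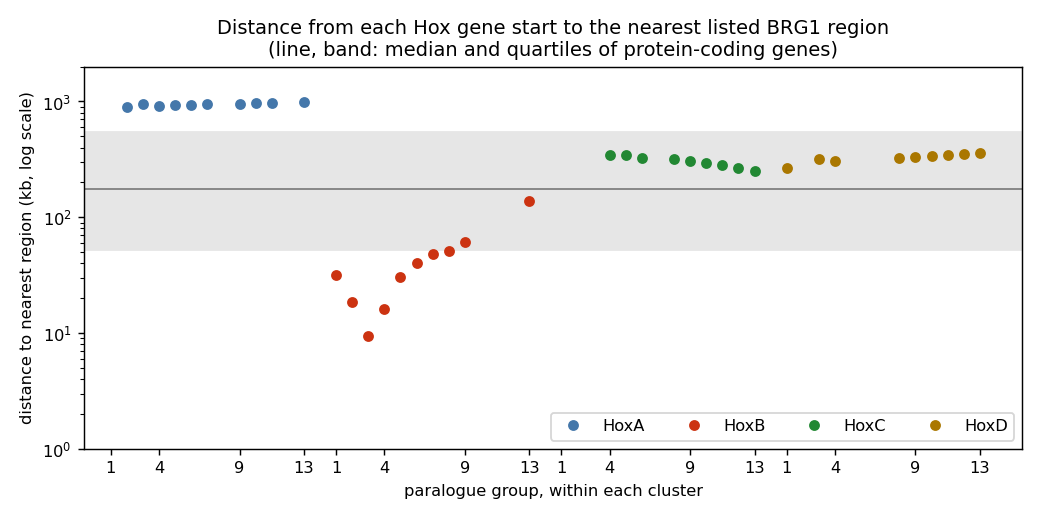
Distance in kb (log axis) from the start of each of the 38 Hox genes to the nearest listed region, by paralogue group within each cluster. The line and band are the median and quartiles over protein-coding genes (174, 51.9 and 541 kb). HoxB genes lie below the median, HoxC and HoxD genes between the median and the upper quartile, and HoxA genes above it.

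Over all 38 genes, the distance from the gene start to a region had a median of 321 kb and ran from 9.45 to 990 kb. Over protein-coding genes its median was 174 kb. With the 2434 regions of at least 200 bp alone, a setting chosen after seeing the data, the medians were 670 kb for the Hox genes and 268 kb for protein-coding genes. Within 50 kb of a region were 7 of the 38 (24.5% of all protein-coding genes), within 100 kb 9 (37.0%), within 200 kb 10 (53.4%) and within 500 kb 28 (73.4%). All those within 200 kb were HoxB genes, and the 10 beyond 500 kb were the HoxA genes. By cluster, the medians were 35.9 kb for HoxB, 305 kb for HoxC, 330 kb for HoxD and 946 kb for HoxA, and the ranges of HoxA and HoxB overlapped with no other cluster. Genes of a cluster lie close together and mostly share their nearest region. Most of the spread therefore had to lie between clusters, and the genes are not separate observations of it. With regions of at least 200 bp, the medians of HoxB and HoxA were again 35.9 and 946 kb, that of HoxC was 390 kb, and that of HoxD, whose nearest region is narrower, was 1168 kb, above HoxA. Among paralogues the distance followed the cluster for the same reason: in group 9, Hoxb9 lay 61.3 kb from a region, Hoxc9 305 kb, Hoxd9 330 kb and Hoxa9 960 kb.

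HoxB (chr11:96055630-96229570, plus strand) held the single region inside a cluster. That region (chr11:96194086-96194445) was 360 bp wide, the median width of all regions, and was listed on 1 row. It lay between the first and the next exon of the Hoxb3 transcripts that start at 96184640 and 96189376, and overlapped no exon. Hoxb3 (ENSMUSG00000048763), an anterior Hox gene with roles in the hindbrain and pharyngeal region, runs from 96184640 to 96207999. The region lay 9.45 kb downstream of the gene start and 4.71 kb downstream of the nearest TSS, at 96189376, and 7.81 kb upstream of the next TSS, at 96202259. It was the nearest region for 9 of the 10 HoxB genes. Hoxb4 and Hoxb2 started 16.1 and 18.5 kb from it, Hoxb5 30.2 kb, Hoxb6 40.3 kb, Hoxb7 48.5 kb and Hoxb8 50.9 kb. Hoxb13 stands apart from the other HoxB genes in the genome, and it started 138.5 kb away.

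In sequence, the Hoxb3 region was rich in G and C, at 74.2%, with 35 CpG dinucleotides. Its ratio of observed to expected CpG was 0.718. Over all distinct regions the median G and C content was 72.4% (quartiles 63.1% and 76.3%) and the median CpG ratio 0.859. Of the overlapping windows of 360 bp taken along the clusters, 0.728% (176 of 24183) were at least as rich in G and C. This is a share of windows and not of bases. Such windows formed 16 separate stretches. Of these, 7 lay in HoxA, 6 in HoxD, 2 in HoxB, the Hoxb3 region among them, and 1 in HoxC. The stretches of HoxA, HoxC and HoxD held no listed region.

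On the 3' side of HoxB, next to the anterior gene Hoxb1, the list held 5 regions within 100 kb. In the order of their distance from Hoxb1 they were 360, 120, 100, 1100 and 140 bp wide. The second began 31.9 kb beyond the end of Hoxb1, the third 39.3 kb and the last 96.3 kb. The first 4 lay together within 24.5 kb, overlapped no annotated gene and had the pseudogene Gm11531 as the gene with the nearest TSS. The last lay on the TSSs of Skap1, which encodes a T cell adaptor protein, and of the lincRNA Gm11529, which start close together on opposite strands. The region of 1100 bp was on 2 rows, and 8.52% of distinct regions were at least as wide.

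Such crowding was seen at 1 other place in the list. Of the 3473 distinct regions, 5 (0.144%) opened a stretch of 100 kb that held 5 or more regions. Among these were the Hoxb3 region itself and the first region beyond Hoxb1, each with 5 regions in its stretch. The stretches at HoxB overlapped each other, with their regions spread over 89.0 and 67.4 kb. The other 3 stretches overlapped each other on chromosome X between 166424946 and 166446305. They were denser, with 7, 6 and 5 regions in 21.4, 18.1 and 14.4 kb. This count was made after the regions at HoxB had been seen. All words of 75 bp in the 6 regions of HoxB, the read length, occurred once in mm9.

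Of the other regions whose sequence is shown, the second and the third beyond Hoxb1 had G and C contents of 55.8% and 62.0% and CpG ratios of 0.571 and 0.630. The promoter region of Skap1 had 82.1% G and C and a CpG ratio of 0.964. The GATA word AGATAA, searched on both strands, occurred in 1 of the 4 regions shown, 2 times in the second beyond Hoxb1, and in 10.1% of all distinct regions. The word TGATNNAT, which HOX proteins bind with PBX partners, occurred in none of the 4 regions shown and in 5.41% of all regions. The core word of CTCF (CCAC, any base, AGG, any base, GGC) occurred in none of the 4 regions shown and in 0.317% of all. Direct repeats of AGGTCA, or AGTTCA followed by AGGTCA, with 5 bases between the copies, a form bound by retinoic acid receptors, occurred in none of the 3473 regions. The regions shown from beside the cluster were 120, 100 and 140 bp wide, below the median of 360 bp over all regions. A narrow region has less room for a word, so the shares of all regions are not a like comparison. A word that is absent says only that these letters were not there.

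BRG1 regions in CPs were more frequent at genes whose start is rich in CpG, and so the Hox gene starts were placed on that scale. The ratio of observed to expected CpG was taken in the 2 kb around each gene start. The promoter call used every annotated TSS, so for genes with several TSSs the ratio leaves the others unmeasured. Its median was 0.548 for the Hox genes, with a range from 0.174 at Hoxc4 to 0.886 at Hoxa5. Over protein-coding genes the median was 0.725 for those with a region at a promoter and 0.410 for those without. Of the Hox genes, 6 were above the first of these medians, namely Hoxa4, Hoxa5, Hoxa13, Hoxd8, Hoxd9 and Hoxd13, and none of them was within 200 kb of a region.

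**Figure D3:**
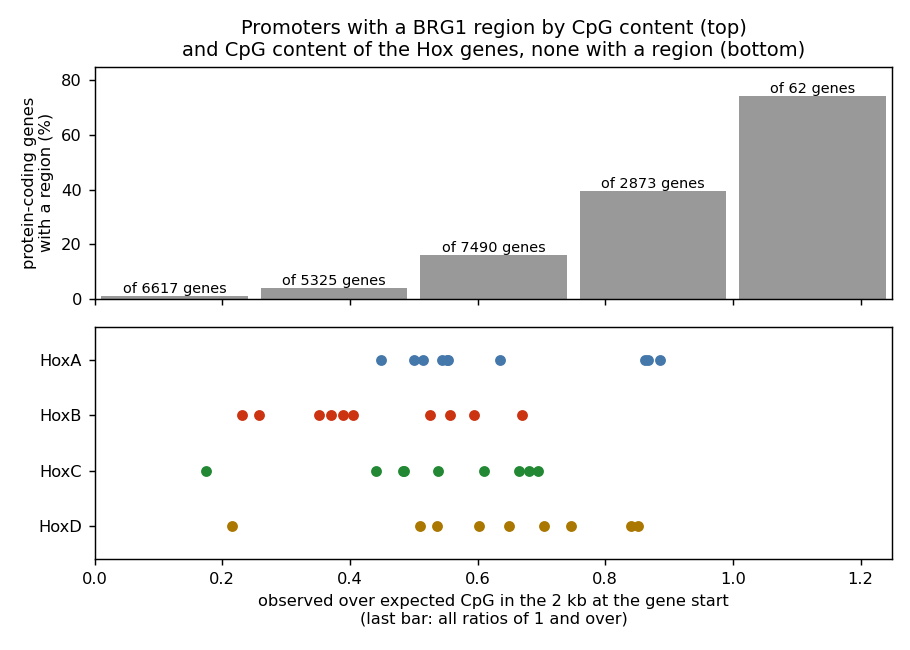
Top, percent of protein-coding genes with a listed region within 1 kb of a TSS, in 5 classes of the ratio of observed to expected CpG in the 2 kb at the gene start. Bottom, the same ratio for the 38 Hox genes, 1 point a gene. The share rises from 1.15% to 74.2% with the ratio. From 0.5 to under 1 lie 25 Hox genes, none with a region, and the last class, of 62 genes, holds no Hox gene.

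A region lay at a promoter of 1.15% of protein-coding genes with a CpG ratio under 0.25, of 3.94% from 0.25 to under 0.5, of 16.0% from 0.5 to under 0.75, of 39.5% from 0.75 to under 1 and of 74.2% (46 of 62) from 1. These classes held 3, 10, 20, 5 and 0 Hox genes, in this order, and 0 with a region in each. The 5 from 0.75 to under 1 were Hoxa4, Hoxa5 and Hoxa13 with Hoxd8 and Hoxd13. The lowest class held Hoxb3, Hoxc4 and Hoxd4, which have 4, 2 and 2 annotated TSSs, so their ratios describe the gene start alone. At Hoxb3 the window of the gene start, with a ratio of 0.231, was thus poorer in CpG than the region in its intron. Of the words of 75 bp in the windows of the Hox gene starts, 99.9% occurred once in mm9, and 99.5% of those in the clusters, beside 99.6% of those in the listed regions.

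The genes beside the clusters were counted as well. Within 100 kb of a cluster end, 24 annotated genes that are no members have their start, of which 8 are protein coding. Of the 24, 2 had a region within 1 kb of a TSS, Skap1 and Gm11529, beside 7.92% of annotated genes of every type. Evx1 next to HoxA and Evx2 next to HoxD, homeobox genes that belong to the 5' ends of these clusters, had none. Mtx2 and Lnp beside HoxD, and Ttll6 and Calcoco2 beside HoxB, had none either.

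BRG1 regions lay at some of the genes whose proteins work with HOX factors. HOX proteins gain specificity on DNA from the PBX, MEIS and PKNOX homeodomain proteins, and 3 of 8 such genes (37.5%) had a region within 1 kb of a TSS, beside the 11.9% of all protein-coding genes. At Meis1 the region was 2120 bp wide (chr11:18918726-18920845) and covered the gene start. At Pknox2 it was 880 bp wide and 0.474 kb from the gene start, and at Pbx3 300 bp wide, at a TSS inside the gene, with the gene start 1.675 kb away. Meis3 and Meis2 had regions 2.86 and 10.2 kb from their starts, outside the promoter. Pknox1 was 93.7 kb from a region, Pbx2 468 kb and Pbx4 520 kb. Of the 6 ParaHox genes, the sister group of the Hox clusters, Cdx1 had a region of 900 bp at its promoter. Gsx1, Gsx2, Pdx1, Cdx2 and Cdx4 had none.

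Among 22 genes of proteins that control Hox genes, 13 (59.1%) had a region at a promoter. Of the Polycomb genes, these were Ezh2, Suz12 and Jarid2 of the complex that methylates H3K27, with regions of 580, 620 and 480 bp, and Ring1 and Rnf2 of the complex that ubiquitylates H2A, with 700 and 1180 bp. Eed, Bmi1 and Cbx2 had none. Mll1 (Kmt2a), the H3K4 methyltransferase that keeps Hox genes active, had a region 0.327 kb from its start. Ctcf, whose protein binds at chromatin boundaries, and Zfp143 had regions of 700 and 1140 bp over their starts. Gdf11, a secreted factor that sets posterior Hox expression, had none within 1 kb. Of the retinoic acid genes, Rarb, Rarg, Rxra, Rxrb and Cyp26b1 had a region within 1 kb of a TSS, and Rara, Rxrg, Aldh1a2, Cyp26a1 and Cyp26c1 had none. For Rarb, Rarg, Cyp26b1 and Rxra this was a TSS inside the gene, and the gene start lay 243, 11.2, 4.395 and 1.13 kb from the region. The median CpG ratio of these 22 genes was 0.7515, above the 0.548 of the Hox genes, so the lists differ in base composition too. Its part in the counts was not tested.

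**Figure D4:**
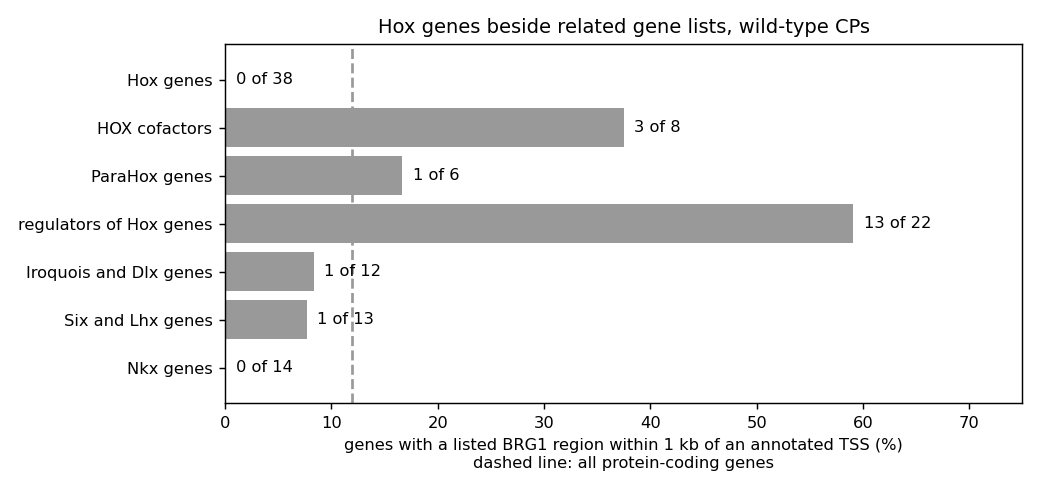
Percent of genes with a listed region within 1 kb of an annotated TSS, for the Hox genes and 6 other lists, with the counts beside the bars. The dashed line is the 11.9% of all protein-coding genes. The Hox and Nkx lists hold 0 such genes, and the list of regulators of Hox genes holds 13 of 22.

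Counts near or below the 11.9% of all protein-coding genes were seen in other homeobox families, and in lists this short 1 gene moves the share by several percent. Of 12 Iroquois and Dlx genes, 1 (8.33%) had a region at a promoter, Irx2, with 660 bp over its start. Of 13 genes, those of the Lhx family and Six2 to Six6, 1 (7.69%) had a region at a promoter, Six5. Of 14 Nkx genes, 0 had a region there, although regions lay 1.97 kb from the start of Nkx2-5 and 3.97 kb from that of Nkx2-3. Nkx2-5 is a core regulator of heart development. The median CpG ratios of these lists were 0.619, 0.622 and 0.572. These 3 lists were added after the Hox counts had been seen, and whether the Hox genes differ from them was not tested.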

How the data were processed

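Single-end reads of wild-type CPs had been trimmed by the authors (fastq-mcf), mapped by Bowtie to mm9 and kept above a mapping quality limit, and bins with more reads than input DNA had been called. Tool versions, and how the libraries were combined into 1 list, are not given in the sources used here. The deposited list gives each region as a chromosome, a start and an end in bp, and no measure of its strength.

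Starts were read as counted from 0 and printed from 1, and repeated rows were counted once. Regions were set against the mm9 sequence and GENCODE release M1 with Python 3.11.15, numpy 2.4.6, pysam 0.24.0, numba 0.67.0 and matplotlib 3.10.9. Distances run from a gene start to the nearest edge of a region. Clusters run from the first to the last listed gene, and the 2 records of Hoxa3 were taken as 1 gene. Of the protein-coding genes, 30 on sequences without regions have no distance and count as having none near. Promoter calls and distances were checked on planted positions.

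All listed Hox genes are named, and of the other lists the genes with a region at a promoter. Further genes of these lists and the sequences outside the clusters were chosen after their values had been seen. Kmt2a was found in the annotation as Mll1, and Znf143 is Zfp143. Some genes of these lists and some sequences are not reported here. The members and lists were chosen with earlier results of these data known.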

Additional observations from a re-analysis of the deposited data

How the results depend on the processing

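For 7 results, 24 alternatives were run, of which 3 were chosen after seeing the data, and 19 of the 24 left the value within a factor of 1.5. The count of Hox genes with a region at a promoter was 0 under the 7 alternatives planned for it, which are among the 19. All but 2 kb either side of a TSS narrow the call or the list, so a count of 0 could not rise. With the nearest region 4.71 kb from a Hox TSS, 2 kb could not change it either. These zeros are therefore no sign of robustness. With 5 kb either side of a TSS the count became 1, Hoxb3, where 12.9% of protein-coding genes had a region. Within 50 kb of the clusters lay 3 regions and within 200 kb 8, in place of 5 within 100 kb. With regions of at least 200 bp only, the median distance from a Hox gene start rose from 321 to 670 kb. With genes of every type as the background, 7.92% had a region at a promoter. Inside the clusters, the count was 1 under each of the 5 alternatives, which are also among the 19. That region is 360 bp wide and on 1 row, and the nearest region outside a cluster end was 29.0 kb away. Counting every row, a limit of 200 bp, bounds widened by 5 kb or merged gaps of up to 2 kb could thus not change the count. It is no sign of robustness either. The width of regions at Hox promoters has no value, as none lay there.

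No paired analysis was possible because a row of the list is a position that belongs to no single library, and for the same reason no replicate was left out. A stricter calling threshold was not available, and the depth behind the list is unknown.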
